A study of Mus musculus with 3 samples.

Results

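The genes described here encode the translation initiation factors of the mouse, the proteins that bring the ribosome, the initiator tRNA and the messenger RNA together. They were chosen as the protein-coding RefSeq genes of the mm10 assembly whose symbols begin with Eif and a digit, which gave 56 genes of 21887. The set holds core subunits as well as the kinases of eIF2, the exchange factor eIF2B, binding proteins of eIF4E and a few copies and relatives that carry the same symbol stem. CUT&Tag, in which an antibody guides a transposase to a chromatin protein so that nearby DNA is cut and tagged, was used to map Flag-tagged Bcl11a in sorted LSK cells of mouse bone marrow. LSK cells are the fraction without lineage markers and with Sca-1 and Kit, which holds blood stem cells and early progenitors. There was 1 group of 3 libraries. According to the design text, all 3 came from knock-in mice whose Bcl11a carries 3xFlag at its N-terminus, although the genotype label of each sample reads wildtype. Age, sex and whether the libraries came from separate or pooled animals are not given in the labels, so an SD over libraries measures only their own spread, which may be technical. No untagged or input library was analysed here, and a peak of the tagged protein cannot be told apart from open chromatin cut without it.

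Initiation in animals begins when eIF2, loaded with GTP and initiator tRNA, joins eIF1, eIF1A, eIF3 and eIF5 on the small ribosomal subunit. The eIF4F complex of cap-binding eIF4E, scaffold eIF4G and helicase eIF4A then recruits the messenger RNA, and eIF5B joins the large subunit. Cells restrain the process by phosphorylating eIF2 through its kinases, which blocks the exchange factor eIF2B, or by releasing eIF4E-binding proteins that mTORC1 otherwise keeps inactive. Blood stem cells are known for keeping a low rate of protein synthesis. Bcl11a is a zinc finger repressor best known for silencing fetal globin genes.

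The 3 lists held 38731, 36459 and 43462 peaks on the autosomes, X and Y in libraries 1, 2 and 3. Overlapping peaks joined into 60816 regions, of which 22987 had a peak of every library and are called reproducible. A gene is called occupied below when any base of a reproducible region lies within 1 kb of either outer end of its annotation. The lists hold no library totals. Solved from the peaks, background went down to 1.07 fragments in library 1, 1.41 in library 2 and 1.95 in library 3, so equal enrichment rests on fewer fragments in library 1. Among genes that mark LSK cells, 5 of 6 were occupied, where 45.2% of all protein-coding genes were. The exception, Ly6a, which encodes Sca-1, had a peak of 1 library at an end. Of 8 genes of mature lineages, only Cd79a was occupied. Peaks do not measure expression.

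A few promoter windows are shown first so that the results below can be read against them. Eif2a and Eif2s1 had the strongest end regions by mean. Eif2s3x and Eif2s3y are the X and Y copies of a subunit gene, both occupied. Eif4e has a pair of listed starts, of which the second lay under the signal. Eif4a3 was occupied, whereas its relative Eif4a3l1 and the kinase gene Eif2ak2 were not. Each window runs from 250 bases before to 50 bases after the start in RefSeq on GRCm38.p6, 5′ to 3′ on the strand of the gene. Capitals mark any match, on either strand, to TGACCA (a core of BCL11A sites), GATAA (GATA factors), CCGGAAG (ETS), GGGCGG (Sp and Klf factors), CACGTG (E-box), TGACGTCA (CRE), the palindromic NRF1 word, AAGATGGC (YY1) or CCAAT (NF-Y).
Eif2a (chr3:58525571-58525870, plus strand): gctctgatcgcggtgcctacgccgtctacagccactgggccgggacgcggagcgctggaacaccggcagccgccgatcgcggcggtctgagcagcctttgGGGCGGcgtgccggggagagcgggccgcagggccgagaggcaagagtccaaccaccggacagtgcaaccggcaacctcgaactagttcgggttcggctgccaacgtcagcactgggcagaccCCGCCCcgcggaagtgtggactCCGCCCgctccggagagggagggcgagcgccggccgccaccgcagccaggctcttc
Eif2s1 (chr12:78861822-78862121, plus strand): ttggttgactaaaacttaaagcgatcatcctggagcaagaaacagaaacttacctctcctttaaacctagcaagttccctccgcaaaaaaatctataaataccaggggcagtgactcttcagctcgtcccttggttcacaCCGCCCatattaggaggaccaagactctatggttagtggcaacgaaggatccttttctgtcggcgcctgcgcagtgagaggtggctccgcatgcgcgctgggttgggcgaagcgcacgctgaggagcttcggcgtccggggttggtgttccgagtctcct
Eif2s3x (chrX:94212602-94212901, minus strand): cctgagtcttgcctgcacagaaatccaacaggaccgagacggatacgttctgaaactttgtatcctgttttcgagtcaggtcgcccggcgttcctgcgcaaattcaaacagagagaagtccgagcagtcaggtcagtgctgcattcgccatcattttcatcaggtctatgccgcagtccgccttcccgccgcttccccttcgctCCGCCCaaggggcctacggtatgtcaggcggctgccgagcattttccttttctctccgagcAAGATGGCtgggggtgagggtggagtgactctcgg
Eif2s3y (chrY:1010345-1010644, plus strand): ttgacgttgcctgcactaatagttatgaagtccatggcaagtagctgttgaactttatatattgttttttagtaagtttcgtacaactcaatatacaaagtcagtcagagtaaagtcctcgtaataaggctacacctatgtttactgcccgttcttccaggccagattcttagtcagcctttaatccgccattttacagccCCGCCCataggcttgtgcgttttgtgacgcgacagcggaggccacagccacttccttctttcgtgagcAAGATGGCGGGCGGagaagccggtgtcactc
Eif4e, first listed start (chr3:138525941-138526240, plus strand): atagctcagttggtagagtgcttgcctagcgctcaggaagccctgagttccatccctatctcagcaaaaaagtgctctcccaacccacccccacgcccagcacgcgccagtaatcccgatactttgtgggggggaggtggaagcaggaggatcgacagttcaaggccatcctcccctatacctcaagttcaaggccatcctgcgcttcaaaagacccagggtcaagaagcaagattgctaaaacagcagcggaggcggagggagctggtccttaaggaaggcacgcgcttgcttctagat
Eif4e, second listed start (chr3:138527018-138527317, plus strand): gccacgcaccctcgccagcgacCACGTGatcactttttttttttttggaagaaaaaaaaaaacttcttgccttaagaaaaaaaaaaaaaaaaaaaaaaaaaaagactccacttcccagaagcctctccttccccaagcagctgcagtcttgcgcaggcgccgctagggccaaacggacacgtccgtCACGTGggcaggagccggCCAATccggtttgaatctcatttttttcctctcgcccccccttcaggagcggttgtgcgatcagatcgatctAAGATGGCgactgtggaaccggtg
Eif4a3 (chr11:119299994-119300293, minus strand): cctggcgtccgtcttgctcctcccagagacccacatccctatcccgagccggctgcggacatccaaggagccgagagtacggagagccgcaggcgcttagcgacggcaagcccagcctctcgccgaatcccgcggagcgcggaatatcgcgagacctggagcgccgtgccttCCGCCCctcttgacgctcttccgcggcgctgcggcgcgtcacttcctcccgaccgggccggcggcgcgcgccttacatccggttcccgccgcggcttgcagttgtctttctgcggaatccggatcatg
Eif4a3l1 (chr6:136327289-136327588, plus strand): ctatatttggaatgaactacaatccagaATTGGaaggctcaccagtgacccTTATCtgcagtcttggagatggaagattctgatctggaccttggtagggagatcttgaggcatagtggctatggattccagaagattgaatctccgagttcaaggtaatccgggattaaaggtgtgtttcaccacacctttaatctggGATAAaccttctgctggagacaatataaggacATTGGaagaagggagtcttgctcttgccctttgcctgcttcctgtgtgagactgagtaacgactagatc
Eif2ak2 (chr17:78882523-78882822, minus strand): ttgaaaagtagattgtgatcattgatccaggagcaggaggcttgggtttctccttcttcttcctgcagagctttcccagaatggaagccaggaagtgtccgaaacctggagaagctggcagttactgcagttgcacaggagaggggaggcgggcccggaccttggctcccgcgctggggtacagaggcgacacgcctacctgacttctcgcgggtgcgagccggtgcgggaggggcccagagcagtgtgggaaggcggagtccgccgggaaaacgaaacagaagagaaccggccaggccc
The Eif4e windows differ in composition, with a CpG observed over expected of 1.03 at the second start and 0.474 at the first. The window of Eif4a3 had 1.21 and that of Eif4a3l1 had 0.202. No capitals appear in the windows of Eif2ak2 and of the first Eif4e start, which says only that these letters are absent there.

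Of the 56 initiation factor genes, 45 were occupied (80.4%), where 45.2% of all protein-coding genes were. Another 4 had a region of 2 libraries at an end, 3 a region of 1 library, and 4 had no peak of any library there. Taken singly, libraries 1, 2 and 3 had a peak at an end of 48, 48 and 50 of the 56 genes, against 50%, 52.5% and 53.9% of all protein-coding genes. All 5 Eif1 genes, all 4 Eif5 genes and Eif6 were occupied, beside 11 of 15 Eif2 genes, 11 of 14 Eif3 genes and 13 of 17 Eif4 genes. These counts were not tested against each other, and 1 gene more or less would move the share of the small groups widely. With the 10000 strongest peaks of each library only, 29 of the 56 genes were occupied, where 20.6% of all protein-coding genes were.

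**Figure D1:**
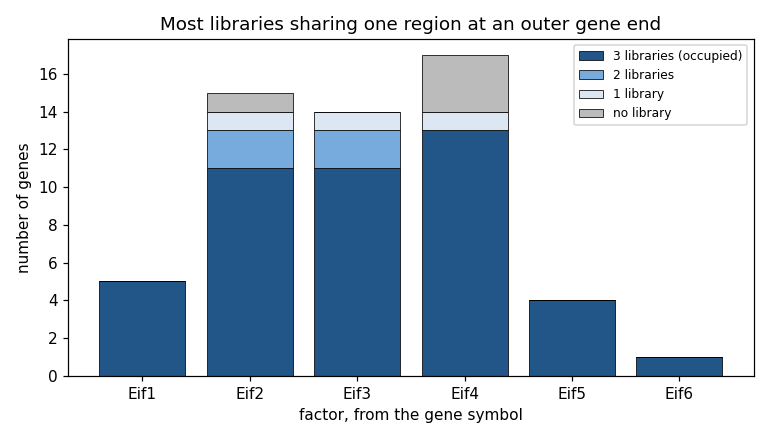
Stacked bars give the number of genes of each factor (vertical axis) by the most libraries that share 1 region within 1 kb of an outer gene end. Every Eif1, Eif5 and Eif6 gene has a region of 3 libraries, and the 4 genes with no peak of any library are 1 Eif2 gene and 3 Eif4 genes.

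Strength was read as the fold enrichment that the authors' peak caller gave each peak, the summit pileup over its local background. The strongest regions of the 45 occupied members had a median fold enrichment of 8.48, against 7.41 for all 9902 occupied protein-coding genes, and 32 of the 45 lay above 7.41. With the 10000 strongest peaks of each library only, the medians were 9.77 and 9.65. The members' medians in libraries 1, 2 and 3 were 8.39, 8.43 and 8.15. Among members the mean over the libraries ran from 4.53 to 14.3, and summit pileups ran from 10 to 130 fragments. The SD was 1.32% to 28.1% of the mean, with a median of 11.97%. When the members were put in order of fold enrichment, the ranges of mean ± SD overlapped in each of the 44 pairs of neighbours, so adjacent ranks cannot be told apart.

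**Figure D2:**
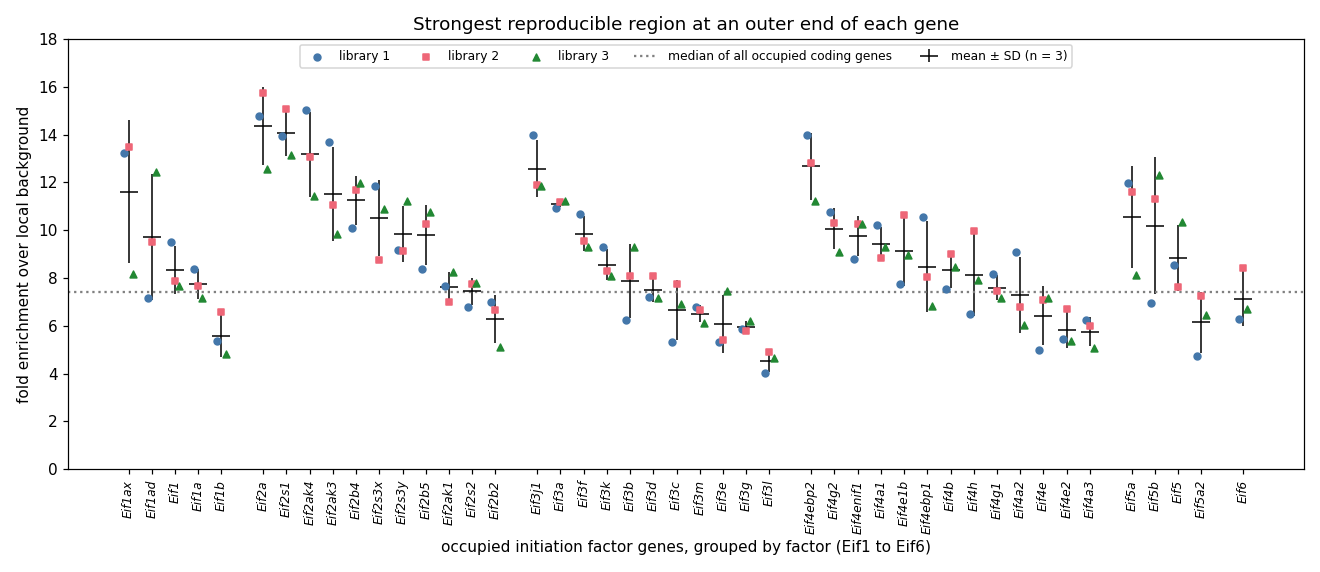
Each column is 1 occupied gene, grouped by factor and ordered by mean. Points are the fold enrichment (vertical axis, linear from 0) of the strongest end region in libraries 1, 2 and 3, bars are mean ± SD (n = 3), and the dotted line is the median of all occupied coding genes, 7.41. Eif2a and Eif2s1 stand highest at 14.3 and 14.0 and Eif3l lowest at 4.53.

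The strongest end regions of the set, by mean fold enrichment, lay at Eif2a and Eif2s1. Eif2s1 encodes the alpha subunit of eIF2, the factor that delivers the initiator tRNA. Stress kinases phosphorylate this subunit. Its region (chr12:78861059-78862292) had a fold enrichment of 13.9, 15.1 and 13.2 in libraries 1, 2 and 3 (mean 14.0 ± 0.96, SD, n = 3). The summit pileups were 66, 108 and 122 fragments. That region was shared with the end of Atp6v1d, a proton pump subunit gene, and its summits lay at -308, -308 and -253 bp from the Eif2s1 start, where negative is upstream. Eif2a, which encodes an initiation factor separate from eIF2 in spite of its name, had 14.8, 15.7 and 12.6 in libraries 1, 2 and 3 (mean 14.3 ± 1.63, SD, n = 3) in a region (chr3:58525510-58526087) shared with Serp1. All 3 libraries placed its summit on the same base, -40 bp from the start. Eif2s2, the gene of the beta subunit, was weaker in every library than either, with 6.77, 7.73 and 7.81 (mean 7.44 ± 0.58, SD, n = 3).

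The gamma subunit, which binds GTP, is encoded by an X and a Y copy in the mouse, and both were occupied. Eif2s3x had a fold enrichment of 11.8, 8.76 and 10.9 in libraries 1, 2 and 3 (chrX:94212275-94213591, mean 10.5 ± 1.58, SD, n = 3). Eif2s3y had 9.19, 9.14 and 11.2 (chrY:1010290-1010593, mean 9.84 ± 1.18, SD, n = 3). The copies overlapped in these values and in summit position, -306 to -245 bp from the start at the X copy and -252 to -221 bp at the Y copy. On chromosome X 18.5% of protein-coding genes were occupied, and Eif1ax and Eif2s3x, the X-linked members, both were. On chromosome Y the share was 0.781%, made up of Eif2s3y and the predicted gene Gm52481. The sources used here do not say how reads matching both copies, or the similar pairs Eif3j1 and Eif3j2 or Eif4a3 and Eif4a3l1, were assigned, so values at these genes are uncertain. Eif2d, whose product can place initiator tRNA outside the eIF2 pathway, was without a peak at both ends in every library.

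Of the 4 eIF2 kinase genes, 3 were occupied. Eif2ak4 encodes GCN2, the sensor of amino acid shortage, and had 15.0, 13.1 and 11.4 in libraries 1, 2 and 3 (chr2:118388356-118389125, mean 13.2 ± 1.79, SD, n = 3). Eif2ak3, the gene of the endoplasmic reticulum kinase PERK, had 13.7, 11.0 and 9.82 (chr6:70843880-70844860, mean 11.5 ± 1.97, SD, n = 3). Both were highest in library 1 and lowest in library 3. Eif2ak1, the gene of the haem-regulated kinase of red cell precursors, had 7.65, 7.01 and 8.25 at its start (mean 7.63 ± 0.62, SD, n = 3). Its end region was weaker in every library than a region inside the gene, 9013 bp from the other end (chr5:143893287-143893704), which also overlaps Ankrd61 and had 14.0, 13.7 and 16.0 (mean 14.6 ± 1.25, SD, n = 3). Eif2ak2 encodes PKR, the kinase activated by double-stranded RNA, and was the unoccupied one. A region over its start had peaks of libraries 2 and 3 only, with a fold enrichment of 7.06 and 5.12.

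Subunits of eIF2B, which reloads eIF2 with GTP, were occupied in 3 of 5 cases. Eif2b4 had 10.1, 11.7 and 11.99 in libraries 1, 2 and 3 (mean 11.3 ± 1.03, SD, n = 3) in a region shared with the end of Snx17, a sorting nexin gene. Eif2b5, the gene of the catalytic subunit, averaged 9.80 ± 1.25 (SD, n = 3). Eif2b2 had 7.01, 6.68 and 5.13 in libraries 1, 2 and 3 (mean 6.27 ± 1.004, SD, n = 3), the lowest mean of the occupied Eif2 genes. Eif2b3 had peaks of libraries 1 and 3 at its lower-coordinate end, with 5.80 and 6.79. Eif2b1 had a peak of library 1 near its start, with a fold enrichment of 3.96 and a pileup of 9 fragments.

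The eIF1 group acts in scanning and start codon choice. Eif1, whose product guards against wrong start codons, had 9.49, 7.86 and 7.67 in libraries 1, 2 and 3 (mean 8.34 ± 0.998, SD, n = 3) and pileups of 56, 64 and 74 fragments. Eif1ax encodes eIF1A, and its region (chrX:159371797-159372498) had 13.2, 13.5 and 8.15 (mean 11.6 ± 3.00, SD, n = 3). Eif1ad, a relative of eIF1A, had 7.17, 9.49 and 12.4 (mean 9.70 ± 2.64, SD, n = 3) in a region shared with the end of Banf1. Eif1ad was lowest in library 1 and Eif1ax in library 3. Eif1a, a second eIF1A gene, shared its region with Tmed7 and had 8.39, 7.66 and 7.15 (mean 7.73 ± 0.63, SD, n = 3). Eif1b was the weakest of the group in every library, with 5.38, 6.56 and 4.83 (mean 5.59 ± 0.88, SD, n = 3). Summits at Eif1b lay 588 to 668 bp into the gene in all 3 libraries.

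The eIF3 complex, a large scaffold on the small ribosomal subunit, had 11 of its 14 genes occupied and the lowest median among the factors with more than 1 gene, 7.48. Eif3j1 had 14.0, 11.9 and 11.9 in libraries 1, 2 and 3 (chr2:122028048-122028942, mean 12.6 ± 1.20, SD, n = 3), and encodes a loosely bound subunit. Eif3a, the gene of the largest core subunit, had 10.9, 11.2 and 11.2 (chr19:60790212-60791169, mean 11.1 ± 0.15, SD, n = 3). Eif3l, the weakest of the 45 occupied genes, had 4.02, 4.92 and 4.64 (mean 4.53 ± 0.46, SD, n = 3) with pileups of 10, 16 and 18 fragments. The lowest Eif3a value lay above the highest Eif3l value. Between these came Eif3f at 9.85 ± 0.74, Eif3b at 7.88 ± 1.54, Eif3d at 7.48 ± 0.50, Eif3c at 6.66 ± 1.24, Eif3m at 6.51 ± 0.35, Eif3e at 6.06 ± 1.22 and Eif3g at 5.95 ± 0.23 (SD, n = 3 each). Eif3k, which shared its region with Map4k1, had 9.29, 8.30 and 8.10 in libraries 1, 2 and 3 (mean 8.56 ± 0.64, SD, n = 3).

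Eif3h, Eif3i and Eif3j2 were the unoccupied eIF3 genes. Eif3h had peaks of libraries 2 and 3 at its higher-coordinate end with a fold enrichment of 4.15 and 7.13, and Eif3i had peaks of the same libraries with 5.85 and 8.76. Library 1, the one with the lowest background, had no peak at either. Without library 1 both genes and Eif2ak2 were occupied, and the count came to 48 of 56, where 48.8% of all protein-coding genes were occupied. Eif3j2, a second eIF3j gene, had a peak of library 3 with 4.41, whereas Eif3j1 was among the strongest of the set.

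Genes of the cap-binding complex were occupied to differing degrees. Eif4a1, the gene of the main helicase, had 10.2, 8.82 and 9.28 in libraries 1, 2 and 3 (chr11:69671306-69672781, mean 9.43 ± 0.71, SD, n = 3) in a region shared with Senp3. Eif4a2 averaged 7.30 ± 1.59 (SD, n = 3). Eif4a3, which encodes a helicase of the exon junction complex, had 6.23, 5.99 and 5.06 (mean 5.76 ± 0.62, SD, n = 3), the lowest mean among occupied Eif4 genes. The helicase cofactor genes Eif4b and Eif4h averaged 8.34 ± 0.74 and 8.13 ± 1.73 (SD, n = 3 each). The related gene Eif4a3l1 had no peak of any library at an end. Among the scaffold genes, Eif4g2, whose product lacks the site for eIF4E, had 10.8, 10.3 and 9.10 (mean 10.1 ± 0.87, SD, n = 3). Eif4g1 had 8.17, 7.46 and 7.16 at its start (mean 7.60 ± 0.52, SD, n = 3) and 5.91, 7.16 and 6.63 in a second region beyond its finish (chr16:20693158-20693620), which it shared with Fam131a.

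Eif4e, the gene of the cap-binding protein itself, lay close to the limit of the 1 kb window. Its region (chr3:138527158-138527581) began 967 bp from the outer end, inside the gene, and covered the second of the gene's listed starts, with summits within 52 bp of it. The fold enrichment was 4.99, 7.08 and 7.17 in libraries 1, 2 and 3 (mean 6.41 ± 1.23, SD, n = 3). Just outside the window stood Eif4g3, the third scaffold gene, with a region 1365 bp inside its outer end (chr4:137993144-137993695). That region covered the listed starts of Eif4g3 and had 3.55, 4.22 and 5.43 (mean 4.40 ± 0.95, SD, n = 3). A second region inside the gene (chr4:137994112-137994478) also lay within 1 kb of a listed start and had 6.68, 4.37 and 4.34 (mean 5.13 ± 1.34, SD, n = 3). With listed starts admitted beside outer ends, a rule added after seeing the data, Eif4g3 would count as occupied. Eif4e2, a cap-binding relative, averaged 5.84 ± 0.75 (SD, n = 3). Eif4e3 had a peak of library 1 at an end, with a fold enrichment of 4.47, and a reproducible region deep inside it, 25344 bp from the nearer end. Eif4e1b, an eIF4E relative known from oocytes, had 7.73, 10.6 and 8.97 (mean 9.11 ± 1.46, SD, n = 3) in a region 404 bp beyond its higher-coordinate end. That region also lay at an end of Tspan17, so it cannot be assigned to either gene.

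The eIF4E-binding proteins hold eIF4E away from the scaffold. Eif4ebp2 was the strongest Eif4 gene, with 14.0, 12.8 and 11.2 in libraries 1, 2 and 3 (chr10:61452796-61453321, mean 12.7 ± 1.40, SD, n = 3) and all 3 summits on the same base, -305 bp from its listed start. Eif4ebp1 had 10.6, 8.04 and 6.83 (mean 8.48 ± 1.90, SD, n = 3). In every library Eif4ebp2 was the higher of the pair. Eif4ebp3 had no peak of any library at an end. Eif4enif1, the gene of a carrier that takes eIF4E into the nucleus, had 8.80, 10.3 and 10.2 (mean 9.77 ± 0.84, SD, n = 3) in a region at the ends of Sfi1 and Gm51877 too.

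In the eIF5 group, Eif5a had pileups of 94, 130 and 97 fragments in libraries 1, 2 and 3, the highest of any member in libraries 1 and 2, with a fold enrichment of 11.98, 11.6 and 8.12 (chr11:69920856-69922020, mean 10.6 ± 2.12, SD, n = 3). Its product, modified with hypusine, helps ribosomes through difficult stretches. The paralog Eif5a2 had 4.75, 7.23 and 6.45 (mean 6.14 ± 1.27, SD, n = 3), below Eif5a in every library, and pileups of 10, 18 and 18. Eif5, the gene of the GTPase activator of eIF2, had 8.54, 7.61 and 10.3 (mean 8.83 ± 1.38, SD, n = 3). Eif5b, which encodes the GTPase of subunit joining, had a weak region over its start, with a mean of 4.78 ± 0.69, and a stronger one 622 bp beyond its end (chr1:37996845-37997388), with 6.93, 11.3 and 12.3 (mean 10.2 ± 2.86, SD, n = 3). Txndc9 has an end within 1 kb of both.

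Eif6, whose product keeps the large ribosomal subunit apart from the small one, had a region at each end. The one at the higher-coordinate end (chr2:155826199-155827083) had 6.29, 8.43 and 6.70 in libraries 1, 2 and 3 (mean 7.14 ± 1.14, SD, n = 3). The other lay 243 bp beyond the lower-coordinate end (chr2:155818794-155819594), was shared with Mmp24 and BC029722, and had 7.57, 6.54 and 6.33 (mean 6.81 ± 0.66, SD, n = 3). The ranges overlapped. Eif4g1 and Eif6 were the members occupied at both ends, 3.57% of the 56, where 3.95% of all protein-coding genes were.

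At outer ends of members with a known strand, regions lay mostly at the start of transcription. The 1 kb window keeps only regions near an outer end, so closeness to a start is partly set by it. Regions inside Eif2ak1 and Eif3b, farther from the start, had higher means than the end regions of these genes. RefSeq promoter entries matched 44 of the 56 members and gave their strand. Of the 39 occupied members among them, 38 had a region at the start end alone and Eif4g1 at both ends, where 86.8% of 8026 occupied protein-coding genes with an entry had it at the start end alone and 4.32% at the finish alone. Of the 44 members, 40 had a reproducible region within 1 kb of a listed start (90.9%), where 46.9% of all protein-coding genes with an entry had one. This share leaves out the 12 members without an entry. Of those, Eif2b3, Eif3h, Eif3i, Eif3j2, Eif4e3 and Eif4ebp3 were unoccupied. The strongest end region covered a listed start itself at 36 of the 39 occupied members with an entry. All 3 summits lay within 500 bp of a listed start at 35 of the 39. No share over all occupied protein-coding genes was computed for these measures, so they do not set the members apart from other genes. The middle summit was upstream of the start at 24 members and at or downstream of it at 15, with a median of -42 bp. Over all 45 occupied members, the 3 summits of a region spanned a median of 102 bp, and 100 bp or less at 22 genes. Eif5b and Eif3k, at -855 and -822 bp, were the farthest upstream, and both share their region with a neighbouring gene, Txndc9 and Map4k1.

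**Figure D3:**
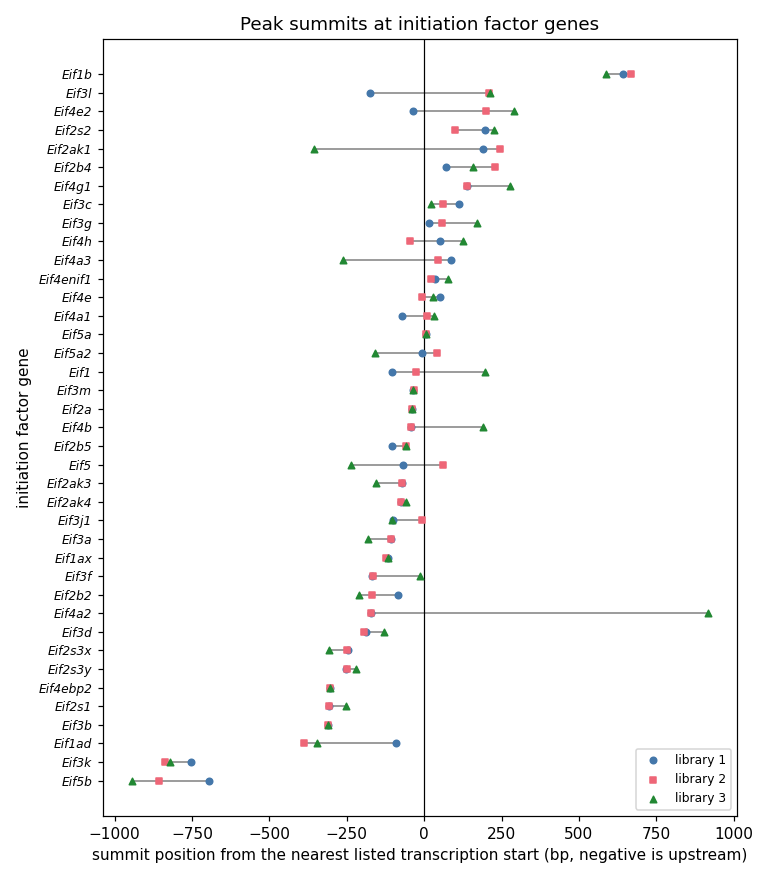
Points give the summit of libraries 1, 2 and 3 in the strongest end region of 39 occupied genes, in bp from the nearest listed start (horizontal axis, negative is upstream), and grey lines join the 3 libraries. Most lie within 500 bp of the start, Eif1b lies 588 to 668 bp downstream, and at Eif4a2 library 3 stands 918 bp downstream while the others stand at -172 bp.

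Several of these regions also reached the end of a neighbouring protein-coding gene. This held for 12 of the 45 occupied members (26.7%), where it held for 31.0% of all occupied protein-coding genes. The members were Eif1a, Eif1ad, Eif2a, Eif2b4, Eif2s1, Eif3k, Eif4a1, Eif4e1b, Eif4enif1, Eif4g1, Eif5b and Eif6. Another 6 reached the end of a noncoding gene only, and 27 reached no other gene end. Signal in a shared region cannot be assigned to either gene.

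Promoter composition moved with occupancy across the genome, and the members' windows were rich in CpG. A CpG observed over expected of at least 0.6 in some listed window was found for 37 of the 39 occupied members with an entry (94.9%), against 78.6% of occupied and 27.4% of unoccupied protein-coding genes. Among protein-coding genes with such a window 70.9% were occupied, and among members with one 37 of 41 (90.2%). Genes without one were occupied in 20% of cases, and Eif2ak1 and Eif2b5 were the members of this kind that were occupied, while Eif4a3l1 was not. The members' shares here leave out the 12 without an entry, several of which were unoccupied. The part of composition in the members' share was not tested.

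Of the motifs searched, GGGCGG occurred in the windows of 31 of the 39 occupied members (79.5%), against 71.1% of occupied and 49.2% of all protein-coding genes with an entry. CCGGAAG occurred in 16 (41.0%), against 20.4% of occupied and 12.9% of all. CACGTG occurred in 10 (25.6%), against 11.7% and 8.91%, and AAGATGGC in 5 (12.8%), against 5.12% and 3.57%. TGACCA occurred in 4 (10.3%), against 13.5% and 14.3%, and GATAA in 4 (10.3%), against 17.6% and 25.6%. CCAAT was in 15 (38.5%), against 43.4% and 42.3%. The NRF1 word was found only at Eif3k among these (2.56%), against 2.39% and 1.47%, and TGACGTCA at none, against 3.65% and 2.54%. No motif in this list contains another. A gene with several listed windows counted when any of them matched, and short GC-rich words are more frequent in GC-rich windows. The median GC share was 62.7% for occupied members and also for all occupied protein-coding genes, and 57.3% for all protein-coding genes. The part of composition in the motif shares was not tested. TGACCA windows belonged to Eif2ak1, Eif3d, Eif4h and Eif5a. AAGATGGC windows belonged to Eif2s3x, Eif2s3y, Eif3f, Eif4a1 and Eif4e. Eif2s3x and Eif2s3y are copies of the same subunit gene, so their matches are not independent.

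Beyond the 1 kb window, 35 of the 56 genes (62.5%) had at least 1 farther reproducible region within 20 kb of an outer end, where 49.7% of all protein-coding genes had one. The 67 regions were each near a single member, 61 outside the gene and 6 inside it. An outer end of another protein-coding gene lay within 1 kb of 30 of them, and the other 37 were near no such end. Regions of the second kind were found at 23 of the 56 members (41.1%), against 35% of all protein-coding genes. The mean number per gene was 0.661 for members and 0.611 for all protein-coding genes. They include regions inside Eif4e and Eif4g3 that lay within 1 kb of a listed start of the gene itself. Farther regions at no coding gene end had a median fold enrichment of 5.47 and those at another gene's end 6.80, below the 8.48 of the members' own end regions.

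**Figure D4:**
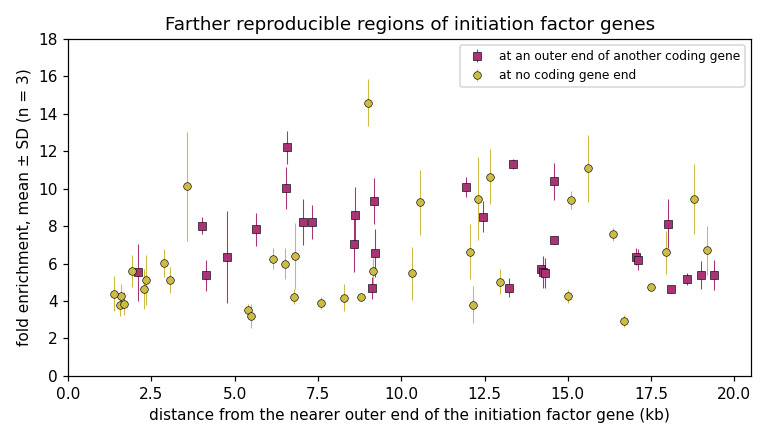
Each point is 1 farther region, placed by its distance from the nearer outer end of the initiation factor gene (kb) and its fold enrichment (mean ± SD, n = 3). Squares lie at an outer end of another coding gene and circles at no coding gene end. The highest circle, at 14.6, is the region inside Eif2ak1.

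Eif5a had 5 farther regions, the most of any member, with means from 3.81 to 7.26, and 3 of them lay at ends of the neighbours Neurl4, 2810408A11Rik, Gps2 and Ybx2. Eif4h had 4, all inside Lat2, an adaptor gene of leukocytes, and all at none of its ends. The farthest of these (chr5:134606319-134607568, 12304 bp from Eif4h) had 11.7, 9.33 and 7.32 in libraries 1, 2 and 3 (mean 9.47 ± 2.21, SD, n = 3) and the others means of 3.21 to 4.66. Members with 3 were Eif2ak4, Eif2b2, Eif2d, Eif3i, Eif4enif1, Eif4g1 and Eif4g3. At Eif2ak4 the strongest (chr2:118490318-118491877) lay 15084 bp beyond the finish, at no coding gene end, and had 9.39 ± 0.47 (SD, n = 3). The 3 of Eif2b2, all upstream of its start at no coding gene end, had means of 3.81 to 5.47, and the 3 of Eif4enif1, all inside Sfi1, 2.95 to 4.24. Eif4g1 had means of 3.86 to 5.12, and the Eif4g3 region at the end of Hp1bp3 had 9.36 ± 1.22 (SD, n = 3).

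A further 11 members had 2 farther regions each, namely Eif2ak1, Eif2b1, Eif2b4, Eif3d, Eif3g, Eif3k, Eif3l, Eif4a1, Eif4b, Eif4ebp3 and Eif5. Their highest values, after the region inside Eif2ak1, stood beside Eif2ak1 at the ends of Aimp2 and Pms2 (12.2 ± 0.90), inside Angptl6 near Eif3g (11.1 ± 1.79), inside Foxred2 near Eif3d (10.6 ± 1.47) and at the end of Ankrd54 near Eif3l (10.1 ± 0.55, SD, n = 3 each). Inside Eif3b, 3565 bp from its finish, a region (chr5:140438740-140439793) had 12.9, 10.4 and 7.10 (mean 10.1 ± 2.91, SD, n = 3). Near Eif2s3x a region 10559 bp beyond the finish had 8.71, 7.89 and 11.2 (mean 9.27 ± 1.72, SD, n = 3). Of the other members with a single region, Eif4a2 had 11.3 ± 0.27 at the end of Rfc4 and Eif5a2 10.05 ± 1.11 at the end of Rpl22l1 (SD, n = 3 each).

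The 11 unoccupied genes were Eif2ak2, Eif2b1, Eif2b3, Eif2d, Eif3h, Eif3i, Eif3j2, Eif4a3l1, Eif4e3, Eif4ebp3 and Eif4g3, and 6 of them had a farther region. Eif2d had one inside it, 6800 bp from its lower-coordinate end (chr1:131159972-131160296), with 5.32, 5.40 and 8.41 in libraries 1, 2 and 3 (mean 6.38 ± 1.76, SD, n = 3). Eif2ak2 had 10.4 ± 0.98 at the ends of Gpatch11 and Heatr5b, 14578 bp away, and Eif4ebp3 8.51 ± 0.83 at the ends of Apbb3 and Slc35a4 (SD, n = 3 each). Eif2b1 had regions at the ends of Ddx55 and of Gtf2h3 and Tctn2 only. Eif3i had regions of 7.55 ± 0.34 and 5.997 ± 0.84 (SD, n = 3 each) at no coding gene end. Eif2b3, Eif3h, Eif3j2 and Eif4a3l1 had no reproducible region within 20 kb of an end. Eif4e3 had only the one deep inside it.

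Other genes of translation and its control were occupied in 42 of 53 cases (79.2%), where 45.2% of all protein-coding genes were. Their median fold enrichment was 7.79, against 7.41 for all occupied protein-coding genes. All 7 genes of the integrated stress response, which follows eIF2 phosphorylation, were occupied, led by its transcription factor gene Atf4 with 11.98, 14.0 and 14.3 in libraries 1, 2 and 3 (mean 13.4 ± 1.27, SD, n = 3). The list of elongation genes, which also held the mitochondrial factor genes Tsfm, Tufm and Gfm1, had 10 of 12 occupied. It was led by Eef1a1 at 10.2 ± 1.03, and Eef1a2 and Gfm1 were not occupied. Genes of mTORC1 and MNK control were occupied in 9 of 11 cases, led by Mlst8 at 10.6 ± 1.38, and Tsc2 and Mknk1 were not. Partners of the cap, the poly(A) tail and scanning had 11 of 14 occupied, led by Paip2b at 13.5 ± 0.59, while Larp1, Larp4 and Pdcd4 were not (SD, n = 3 for each value). A list of termination and recycling genes, which also held the mitochondrial initiation factor genes Mtif2 and Mtif3, had 5 of 9 occupied. It was led by the recycling factor gene Abce1 at 9.52 ± 1.53 (SD, n = 3), and Gspt2, Mtif2, Mtrf1 and Mcts1 were not occupied. No difference between these groups was tested.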

How the data were processed

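CUT&Tag peaks of Flag-tagged Bcl11a were analysed in 3 libraries of mouse LSK cells. The submitters' processing notes name Bowtie2, SAMtools, MACS2 and the mm10 build; versions, duplicate handling and any control are not given. The authors' deposited lists, 1 per library, give each peak a fold enrichment (a ratio over local background), −log10 p and −log10 q, and a summit. The lists hold no counts. Summit pileup was solved from the deposited fold and −log10 p under a Poisson tail (whole within 0.05 for 100% of peaks).

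Peaks overlapping by at least 1 bp were joined. Regions joining peaks of every library were reproducible, and its value in a library was that of the strongest peak there. A member with several end regions was given the one with the highest mean. Genes came from RefSeq on GRCm38.p6, promoters from its 300-base windows. The design has 1 group, so no test was run and counts stand beside those over all protein-coding genes. Members and lists were chosen with earlier results of these data known. The CpG limit of 0.6 was set after seeing the data. Genes named with values follow a rule on strength, shared or missing regions and farther regions per factor; the remaining members were added for completeness. Of the other translation list, 1 symbol (Ligatin, an older name of the member Eif2d) was not in the gene table under that name. Computation used Python 3.11.15 with pandas 2.3.3 and scipy 1.17.1 and was tested on simulated peaks. Alternatives were windows, peak thresholds, overlap, libraries required, measures and each library left out.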

Additional observations from a re-analysis of the deposited data

How the results depend on the processing

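Counts of genes were recomputed under other settings and are called close when within 1.5 times the reported count, and medians when within the SD of the 3 library medians, 0.153. By these limits 90 of 99 values were close. The 9 others came from the 10000 strongest peaks of each library, which keeps fewer peaks by construction, and from other measures of strength. Medians of those measures are in other units and could not fall within the limit, so only their ratios to all occupied genes can be compared. Most of the 99 values are counts per factor, which split the same totals and are not independent of them. Counts already near the size of their group cannot rise past the limit. The tally therefore says little about how far the members' share above all genes depends on the settings. With the 10000 strongest peaks, 29 of the 56 initiation factor genes were occupied, where 20.6% of all protein-coding genes were. They included 3 Eif1, 8 Eif2, 5 Eif3, 10 Eif4 and 2 Eif5 genes. In this setting 20 members had a farther region, 23 genes of the other translation list were occupied, and the members' median fold enrichment was 9.77 against 9.65 for all occupied genes. With summit pileup over library background the members' median was 25.6 against 21.6, and with −log10 q it was 23.0 against 17.3. The ratios of these medians were 1.18 and 1.33, beside 1.14 for fold enrichment.

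The number of members with a farther region was 24 with a 10 kb limit and 43 with a 50 kb limit, beside 35 at 20 kb. Shares of all protein-coding genes with a farther region were not computed under any other setting. These counts therefore do not show whether the difference from all genes seen at 20 kb holds. It was 30 with −log10 q of at least 5 and 31 with 50% reciprocal overlap. The number occupied was 41 with 50% reciprocal overlap (38.2% of all protein-coding genes were occupied under that setting), 43 with −log10 q of at least 5 (38.1%), 43 with a 250 bp window (40.7%), 46 with a 3 kb window (50.8%), 44 with every summit within 1 kb (42%) and 49 with regions of at least 2 libraries (51.6%). Leaving out library 1, 2 or 3 gave 48, 46 and 45 (48.8%, 46.6% and 46.2%), a median fold enrichment of 8.33 to 8.46 and 35 to 37 members with a farther region. Over all settings 24 genes were always occupied, and 6 never were: Eif2b1, Eif2d, Eif3j2, Eif4a3l1, Eif4e3 and Eif4ebp3. No paired analysis was possible because there is only 1 group. The lists hold no library totals, and the part of depth in the weak or missing regions was not tested.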

Other observations

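Among the 45 occupied initiation factor genes, the SD over libraries exceeded 25% of the mean at Eif1ad, Eif1ax and Eif5b. Eif1ad and Eif5b had their lowest fold enrichment in library 1 (7.17 and 6.93) and their highest in library 3 (12.4 and 12.3), whereas Eif1ax was lowest in library 3 (8.15). Over all 45 genes the highest value fell in library 1 at 18, in library 2 at 14 and in library 3 at 13.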
